A study of Mus musculus with 3 samples.

Results

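The 6 genes followed here through mouse dorsal skin bear on how a cell can answer interleukin-1 (IL-1) and its relative IL-33: Il1r1, Il1rap, Il1r2, Il1rn, Il1rl1 and Irak3. They were chosen by name, as 6 of the 27998 genes in the deposited gene lists, and each was found under its own symbol. The skin came from C57BL/6 mice at 3 ages, neonatal, 3 weeks and 2 months, with 1 single-cell library at each age. No transgene or treatment is named for any group, and the number of animals behind a library is not stated. Minced biopsies had been digested with collagenase D and DNase, and transcripts were counted from their 3' ends as unique molecular identifiers (UMIs), each of which stands for 1 captured RNA molecule.

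IL-1 alpha and IL-1 beta bind the receptor encoded by Il1r1, which then recruits the accessory chain encoded by Il1rap, and the joined cytoplasmic parts start signalling to NF-kB through MyD88 and the IRAK kinases. The product of Il1r2 binds the same ligands and the accessory chain but has only a short cytoplasmic tail and does not signal, so it is known as a decoy. Il1rn encodes the IL-1 receptor antagonist, which occupies the signalling receptor without recruiting the accessory chain. Il1rl1 encodes ST2, the receptor for IL-33, which shares the accessory chain. Irak3 encodes a member of the IRAK family known mainly as a brake on the pathway inside the cell.

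In mm10 coordinates (GENCODE M21 annotation) Il1r2 lies at chr1:40074079-40125231, Il1r1 at chr1:40225080-40317257 and Il1rl1 at chr1:40429570-40465415, all on the plus strand. They belong to a run of 6 receptor genes, in the order Il1r2, Il1r1, Il1rl2, Il1rl1, Il18r1 and Il18rap, that spans 478 kb of chromosome 1. Il1rap lies at chr16:26581704-26730117 on the plus strand, Il1rn at chr2:24336853-24351494 on the plus strand, and Irak3 at chr10:120141648-120202130 on the minus strand. The longest annotated proteins have 576 residues for Il1r1, 410 for Il1r2, 685 for Il1rap, 178 for Il1rn, 567 for Il1rl1 and 609 for Irak3. Counts per gene do not separate membrane-bound from soluble isoforms, nor the intracellular from the secreted form of the antagonist.

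The sequence just before the transcription start is shown for the 4 members that were measured in fibroblasts, since these are the genes compared across fibroblast subsets and ages. The stretches are the exon-free part of the 250 bases before a RefSeq start (GRCm38.p6), read 5′ to 3′ on the strand of the gene, and capitals mark a motif match. They lie at chr1:40085852-40085984 for Il1r2 (plus strand), chr1:40266336-40266585 for the second of 2 Il1r1 starts (plus), chr16:26581455-26581703 for Il1rap (plus) and chr10:120202196-120202380 for Irak3 (minus).
Il1r2: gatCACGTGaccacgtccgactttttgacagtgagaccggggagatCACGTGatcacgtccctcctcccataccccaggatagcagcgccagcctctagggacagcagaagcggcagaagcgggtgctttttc
Il1r1: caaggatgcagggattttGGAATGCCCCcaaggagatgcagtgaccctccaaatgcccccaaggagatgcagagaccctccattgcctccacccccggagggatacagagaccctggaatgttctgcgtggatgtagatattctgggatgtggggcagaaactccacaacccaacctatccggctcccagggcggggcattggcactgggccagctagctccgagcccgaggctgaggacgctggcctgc
Il1rap: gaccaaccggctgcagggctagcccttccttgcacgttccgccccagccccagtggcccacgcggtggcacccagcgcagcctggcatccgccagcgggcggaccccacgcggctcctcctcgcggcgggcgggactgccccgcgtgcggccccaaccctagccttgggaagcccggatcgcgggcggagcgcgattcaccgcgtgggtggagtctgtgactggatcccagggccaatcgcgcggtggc
Irak3: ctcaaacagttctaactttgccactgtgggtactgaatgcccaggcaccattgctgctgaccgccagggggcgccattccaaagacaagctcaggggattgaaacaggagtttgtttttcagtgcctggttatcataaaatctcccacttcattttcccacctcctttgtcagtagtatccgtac

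The 4 motifs were searched on both strands of all 32851 RefSeq windows of 250 bases: the NF-kB consensus, AP-1 as TGACTCA, the E-box CACGTG, which reads the same on both strands, and TATAAA. The decoy's window held 2 CACGTG matches, at 238 and 195 bases before the start, and 6.02% of all windows held at least 1. The second Il1r1 window held 1 NF-kB match at 232 bases, a motif found in 7.25% of windows. The first Il1r1 window, chr1:40224830-40225079, which ends where the annotated gene begins, held no match of the 4 motifs, and the second is printed because it holds one. Il1rap and Irak3 had no match of the 4 motifs in their windows, and the Il1rap window was the richest in G and C at 74.4%, against a median of 52.4% over all windows. A match describes letters only. The Il1r2 window, chr1:40085843-40086092, lies inside the annotated gene, which begins at chr1:40074079, so its matches are not placed before the annotated gene start. Exons of Gm16894 and of Il1r2 itself overlap the Il1r2 window and exons of Tmbim4 overlap those of Irak3. Whether counting used the strand is not given in the sources used here.

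After removal of barcodes with under 300 genes, under 500 UMIs or over 10% mitochondrial UMIs, 7911 neonatal, 8900 3-week and 9332 2-month barcodes remained, with median depths of 8685.0, 11142.5 and 8529.5 UMIs. Any 2 libraries shared 23 to 31 barcodes. Cells were gated into classes by marker genes that include none of the 6, and each class of 44 or more cells over the 3 libraries had 2 to 7 of its own markers among its leading 10 genes. Fibroblast-like cells (5 of 6 markers among the leading 10, Col1a1 first) numbered 6527, 5789 and 5020, keratinocyte-like cells 285, 1436 and 1778, and mural-like cells 184, 227 and 209. The mural-like class was gated on pericyte and smooth muscle markers and led by Myh11, Myl9 and Tagln. Its markers do not separate the contractile wall of vessels from other smooth muscle. Small classes matter for what follows: 3, 84 and 118 dendritic or Langerhans-like cells, of which 55 at 3 weeks and 72 at 2 months lay near the gate's threshold, 85, 143 and 164 macrophage-like cells, 101, 66 and 12 mast-like cells and 111, 231 and 421 Schwann-like cells. The gate left 424, 463 and 728 barcodes unassigned, and their Il1r2 level was 57.2, 376 and 257 CPM.

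Levels are given as CPM, the usual depth-scaled count: the UMIs of a gene summed over the cells of a class in a library, relative to all UMIs of those cells, with a 95% exact Poisson interval that covers counting error only. Differences between classes were tested over the libraries with edgeR's quasi-likelihood test, each class against the fibroblast-like class with library as a block, and p-values were adjusted by Benjamini-Hochberg over all 12501 genes. An adjusted p under 0.05 counts as a call. Over the 10 contrasts, 12.7% of all gene tests were called higher than in fibroblast-like cells and 18.5% lower. Of the 60 tests of the 6 genes, 7 (11.7%) were called higher and 29 (48.3%) lower. With 1 library per age nothing was tested between ages. With 3 libraries a class contrast rests on at most 3 pairs, so the result without each library is given where it ends a call.

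**Figure D1:**
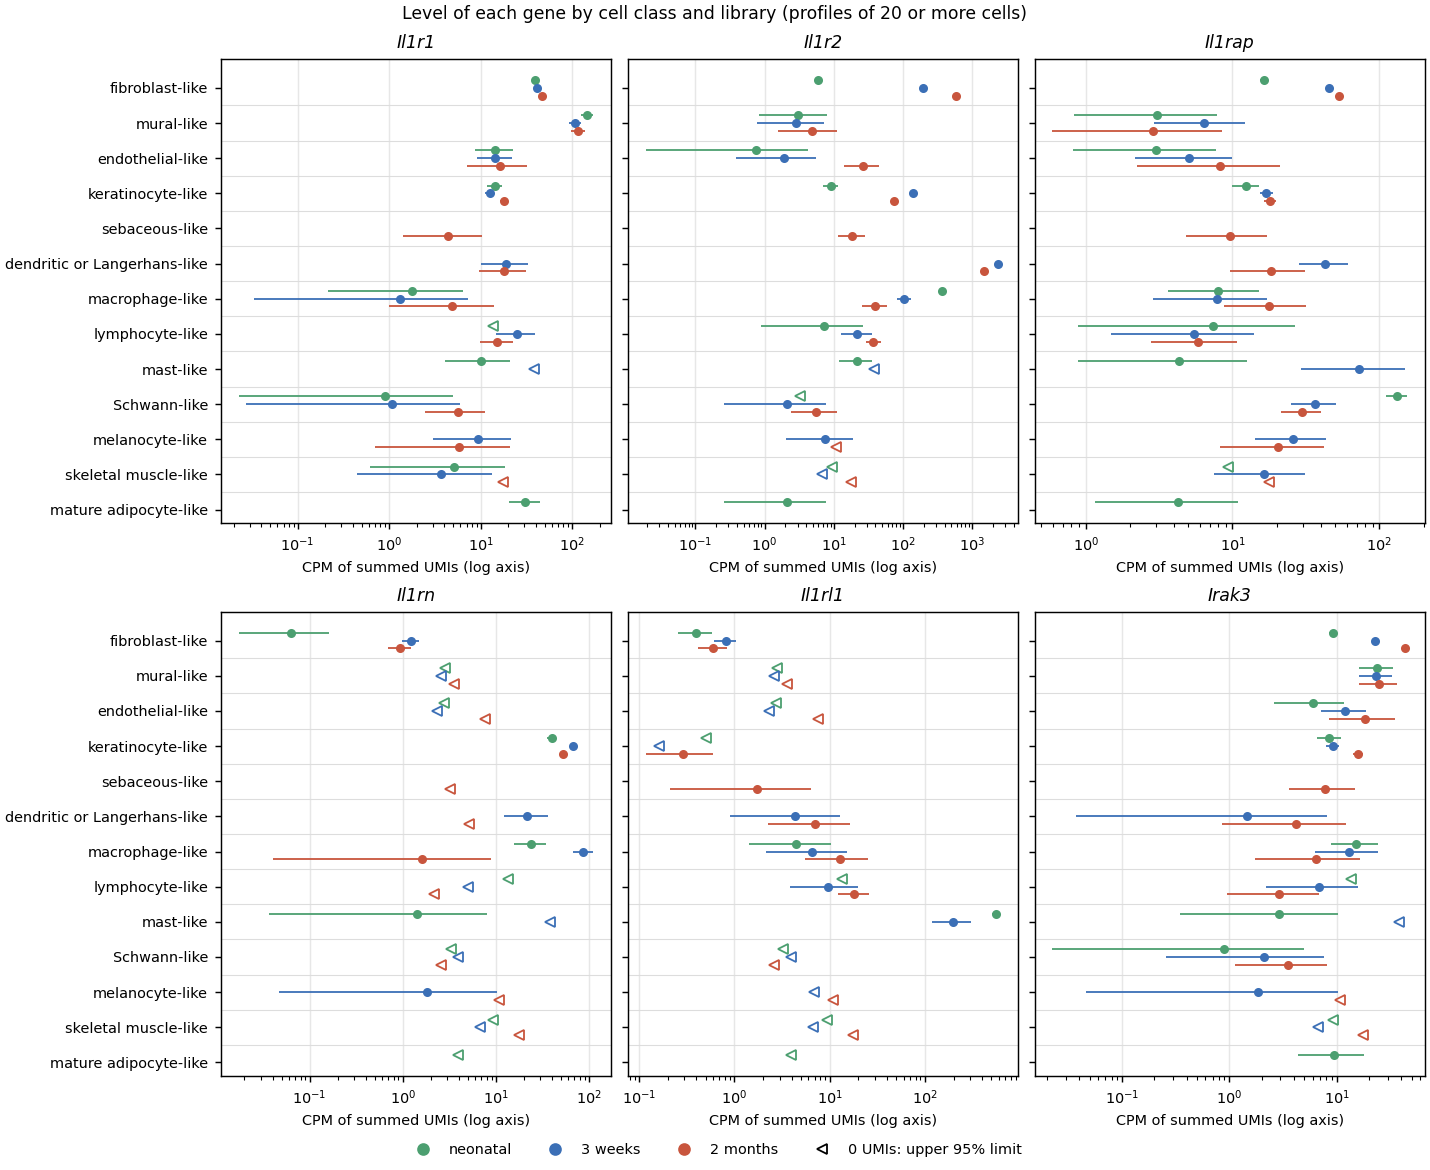
Level of each of the 6 genes (CPM, log axis) in each cell class of 20 or more cells, with 1 point per library (green neonatal, blue 3 weeks, red 2 months) and 95% exact Poisson bars; open triangles mark the upper limit where no UMI was found. Il1r1 was highest in mural-like cells at all 3 ages, Il1rl1 in mast-like cells at the 2 ages with 20 or more of them, and the Il1r2 level of fibroblast-like cells went from 6.02 to 586 CPM.

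The signalling receptor Il1r1 was most abundant in mural-like cells and next in fibroblast-like cells. In mural-like cells its level was 146 CPM (126 to 168) in the neonatal library, 108 (91.2 to 126) at 3 weeks and 116 (96.5 to 139) at 2 months. Fibroblast-like cells had 38.8, 41.2 and 46.8 CPM, so the mural-like level was above theirs in each library and the intervals did not overlap. The fitted difference was 1.40 on the log2 scale (SE 0.38, edgeR adjusted p = 0.0068), and with the 2-month library left out it was 1.63 with an adjusted p of 0.057, without the 3-week library 1.54 with 0.16.

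Keratinocyte-like cells held 14.3, 12.6 and 17.8 CPM of Il1r1 and endothelial-like cells 14.2, 14.5 and 16.4 CPM, and the order of these neighbours was within counting error. Both were called lower than fibroblast-like cells, by 1.72 (SE 0.38, edgeR adjusted p = 0.0006) and 1.84 (SE 0.43, edgeR adjusted p = 0.0019) on the log2 scale, and both calls were lost without the 3-week library (adjusted p = 0.076 and 0.13). The deepest deficits were in nerve sheath and macrophage cells. Schwann-like cells had 0.891, 1.07 and 5.63 CPM, from 1, 1 and 8 UMIs, and macrophage-like cells 1.78, 1.32 and 4.81 CPM, from 2, 1 and 3 UMIs. The log2 differences were -4.34 (SE 0.53) and -4.26 (SE 0.59), with edgeR adjusted p-values of 1.4e-06 and 3.7e-06, and both calls held with each library left out in turn.

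Because droplets also catch free RNA, the share of cells with at least 1 UMI is set beside that of a class expected to lack the gene, after each cell was thinned to 1500 UMIs. Il1r1 was seen in 18.5%, 13.7% and 17.6% of mural-like cells (median depth 6414, 5740 and 4641 UMIs before thinning; 55.4%, 38.8% and 42.1% unthinned) and in 0, 0 and 1.03% of Schwann-like cells (median depth 8331, 3349 and 2857 UMIs). Fibroblast-like cells, with median depths of 8831, 12357 and 10225 UMIs, lay between at 5.12%, 5.67% and 8.86%.

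The accessory chain Il1rap did not follow Il1r1. Its level in fibroblast-like cells was 16.3 CPM (15.3 to 17.3) in the neonatal library, 45.4 (43.9 to 46.9) at 3 weeks and 52.9 (51.0 to 54.8) at 2 months. Mural-like cells, the class richest in Il1r1, had 3.07, 6.37 and 2.88 CPM of it and endothelial-like cells 3.00, 5.03 and 8.22 CPM. These classes were called lower than fibroblast-like cells by 3.35 (SE 0.73, edgeR adjusted p = 0.0013) and 3.33 (SE 0.75, edgeR adjusted p = 0.0014) on the log2 scale. Without the 2-month library the adjusted p for mural-like cells was 0.075, and without the 3-week library that for endothelial-like cells was 0.06.

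In Schwann-like cells, which wrap peripheral nerve, Il1rap was the only member above 10 CPM, at 131 CPM (111 to 154) in the neonatal library and 36.2 and 29.6 CPM later. The neonatal value stood above every other class profile of 20 or more cells for that gene, while the later 2 values were below the fibroblast-like level. Over the 3 libraries the difference from fibroblast-like cells was 0.50 (SE 0.59, edgeR adjusted p = 0.58), and without the neonatal library it was -0.89 with an adjusted p of 0.049. Fibroblast marker counts in neonatal Schwann-like cells stood at 14.4% of the fibroblast-like level, which would carry 2.35 CPM of Il1rap with them. In the thinned cells Il1rap was found in 14.4%, 4.89% and 4.65% of Schwann-like cells. Melanocyte-like cells, the class fixed for comparison, had 0, 5.88% and 4.05% at median depths of 11936, 7966.5 and 1788 UMIs, but they held 25.9 and 20.4 CPM of Il1rap at the later ages and are therefore no measure of free RNA. Mural-like cells, a comparison chosen after the values were seen, had 0, 1.33% and 0.490% at the depths given above.

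The decoy Il1r2 had the widest range of the 6 genes. Dendritic or Langerhans-like cells carried the most of the classes with 20 or more cells, 2406 CPM at 3 weeks and 1488 CPM at 2 months, and 61.4% and 53.9% of them had an Il1r2 UMI in the thinned cells. Against fibroblast-like cells the difference was 2.94 (SE 1.17, edgeR adjusted p = 0.057) on the log2 scale, and without the neonatal library 2.24 with an adjusted p of 0.038, so the call depends on that library, in which the class had only 3 cells and no profile. The 14 neutrophil-like cells of the neonatal library, too few for the test, each had at least 1 Il1r2 UMI and together held 75, or 1183 CPM.

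Macrophage-like cells had 362 CPM of Il1r2 (328 to 399) in the neonatal library, 105 at 3 weeks and 40.1 at 2 months. The neonatal level came from 19 of 85 cells, 3 of which held more UMIs than the other 16 together, so it is not a level of the class. The difference from fibroblast-like cells was 0.45 (SE 1.34, edgeR adjusted p = 0.83) and turned to -2.54 with an adjusted p of 0.036 without that library.

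Structural and nerve cells had little decoy. Schwann-like cells had 0, 2.13 and 5.63 CPM of Il1r2, mural-like cells 3.07, 2.83 and 4.81 CPM and endothelial-like cells 0.750, 1.89 and 26.7 CPM, while no UMI of it was found in 57, 59 and 44 skeletal muscle-like cells. The Schwann-like values were below the 0.869, 4.77 and 9.25 CPM that their fibroblast marker counts would carry with them. They were called lower than fibroblast-like cells by 6.68 (SE 1.55, edgeR adjusted p = 0.0025), mural-like cells by 5.99 (SE 1.51, edgeR adjusted p = 0.0052) and endothelial-like cells by 5.40 (SE 1.42, edgeR adjusted p = 0.0068), all on the log2 scale. These calls ended when Leiden clusters replaced the gate (adjusted p = 0.13, 0.19 and 0.073) and without the 3-week library (adjusted p = 0.087, 0.17 and 0.18). Without the 2-month library those of Schwann-like and mural-like cells ended as well (adjusted p = 0.056 and 0.12). The mural-like call also ended at no more than 5% mitochondrial UMIs (adjusted p = 0.08), and the endothelial-like call without the rule on MHC class II counts described next (0.057). In the thinned cells Il1r2 was seen in 0.816%, 22.7% and 46.0% of fibroblast-like cells (median depth 8831, 12357 and 10225 UMIs) and in 0, 0.444% and 0.775% of Schwann-like cells (8331, 3349 and 2857 UMIs), where the neonatal 0 of 111 cells allows a share of up to 2.70%, the share that 3 such cells would give.

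Keratinocyte-like cells had 9.09 CPM of Il1r2 (7.05 to 11.5) in the neonatal library, 139 (134 to 143) at 3 weeks and 73.7 (70.3 to 77.2) at 2 months. The difference from fibroblast-like cells did not pass the test (log2 -1.82, SE 1.08, edgeR adjusted p = 0.18). Langerhans cells sit among keratinocytes and are rich in Il1r2, and a rule on MHC class II counts had been added to the gate to keep them out. With the rule the keratinocyte-like cells held 1, 20 and 30 UMIs of Cd207, the Langerhans cell lectin, and without it 1, 1868 and 2670. Keratinocyte-like cells with no MHC class II UMI at all had 10.8, 131 and 63.5 CPM of Il1r2. At 2 months their interval (59.6 to 67.5) lay below that of the whole class, of which they are a part.

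Among keratinocyte-like subsets the decoy was concentrated in basal-like cells, the dividing layer, at 17.1, 213 and 121 CPM. Suprabasal-like cells, which have left that layer, had 3.23, 35.3 and 46.9 CPM. Upper follicle-like cells had 0.378 CPM at 3 weeks, from 1 UMI in 223 cells, and 3.63 CPM at 2 months. The order from basal to follicle was the same in both later libraries, and no interval overlapped the next.

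The antagonist Il1rn was far higher in keratinocyte-like than in fibroblast-like cells. Keratinocyte-like cells had 39.8 CPM (35.3 to 44.6), 66.9 (63.5 to 70.3) and 53.0 (50.1 to 56.0), against 0.0634, 1.21 and 0.929 CPM in fibroblast-like cells. The difference was 6.19 on the log2 scale (SE 0.96, edgeR adjusted p = 0.00014), and the call held with each library left out in turn. In the thinned cells Il1rn was seen in 4.93%, 9.76% and 7.04% of keratinocyte-like cells (median depth 17800, 11943 and 10678.5 UMIs) against 0, 0.139% and 0.143% of fibroblast-like cells (median depth 8831, 12357 and 10225 UMIs).

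Within the epidermis the antagonist was distributed otherwise than the decoy. Suprabasal-like cells had the higher Il1rn level in each library, 71.8, 98.2 and 83.0 CPM, and basal-like cells had 5.69, 62.1 and 48.9 CPM. The neonatal gap between the layers was the widest, and the intervals of the layers did not overlap in any library. Upper follicle-like cells had 16.7, 27.6 and 39.3 CPM, the first from 3 UMIs in 15 cells.

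Macrophage-like cells had 24.0, 86.9 and 1.60 CPM of Il1rn and were called higher than fibroblast-like cells (log2 5.34, SE 1.001, edgeR adjusted p = 0.00087). Of the 66 UMIs at 3 weeks, 20 came from 1 cell. The call ended under DESeq2 (adjusted p = 0.086) and without the 3-week library (adjusted p = 0.099). No Il1rn UMI was found in lymphocyte-like or mural-like cells of any library.

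The IL-33 receptor gene Il1rl1 was highest in mast-like cells. Mast-like cells had 554 CPM (500 to 613) in 101 neonatal cells and 197 CPM (119 to 308) in 66 cells at 3 weeks, and 12 cells at 2 months gave 27 UMIs, or 1426 CPM. Fibroblast-like cells had 0.396, 0.810 and 0.596 CPM. The difference over the first 2 ages was 9.34 (SE 0.76, edgeR adjusted p = 8.2e-07). With either of these libraries left out the contrast could not be fitted, because a class needed 2 profiles. A UMI was seen in 79.2%, 15.2% and 83.3% of unthinned mast-like cells, whose median depths were 5054, 756.5 and 1052.5 UMIs, and in 0, 0 and 0.337% of keratinocyte-like cells, whose depths are given above.

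Lymphocyte-like cells had 0, 9.59 and 18.1 CPM of Il1rl1, from 0, 7 and 31 UMIs, and macrophage-like cells 4.45, 6.58 and 12.8 CPM, from 5, 5 and 8 UMIs. Both were called higher than fibroblast-like cells (log2 3.75, SE 0.74, edgeR adjusted p = 0.00087 and log2 3.35, SE 0.78, edgeR adjusted p = 0.0035). Neither call held without the 3-week library (adjusted p = 0.071 and 0.059) or the 2-month library (0.08 and 0.063), and that of lymphocyte-like cells ended with Leiden clusters (log2 1.24, adjusted p = 0.43).

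Irak3, the intracellular brake, was highest in mural-like cells in the neonatal library and in fibroblast-like cells at 2 months, among the classes of 20 or more cells. At 3 weeks these 2 classes were highest and within counting error of each other, the mural-like value resting on 33 UMIs. Mural-like cells had 23.8, 23.4 and 25.0 CPM and fibroblast-like cells 9.22, 23.0 and 43.5 CPM, with no call between them (log2 -0.07, SE 0.46, edgeR adjusted p = 0.94), and the sign of this small difference changed under several settings. Schwann-like cells were called lower by 3.82 on the log2 scale (SE 0.62, edgeR adjusted p = 6.8e-05), with each library left out as well. Keratinocyte-like cells had 8.55, 9.24 and 15.9 CPM, a difference of -1.29 (SE 0.44, edgeR adjusted p = 0.02) that was lost without the 3-week (adjusted p = 0.27) or the 2-month library (0.25).

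Irak3 was uneven within the keratinocyte-like class. Upper follicle-like cells had 31.4 and 32.2 CPM in the later 2 libraries and basal-like cells 5.79 and 9.94 CPM, the reverse of the order for Il1r2. The share of thinned fibroblast-like cells with an Irak3 UMI was 1.20%, 3.41% and 6.23%, and that of keratinocyte-like cells, the class fixed for comparison, was 1.76%, 1.67% and 2.27%. Since keratinocyte-like cells held Irak3 themselves, they are no measure of free RNA. Schwann-like cells, a comparison chosen after the values were seen, had 0, 0.444% and 0.258% at median depths of 8331, 3349 and 2857 UMIs.

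**Figure D2:**
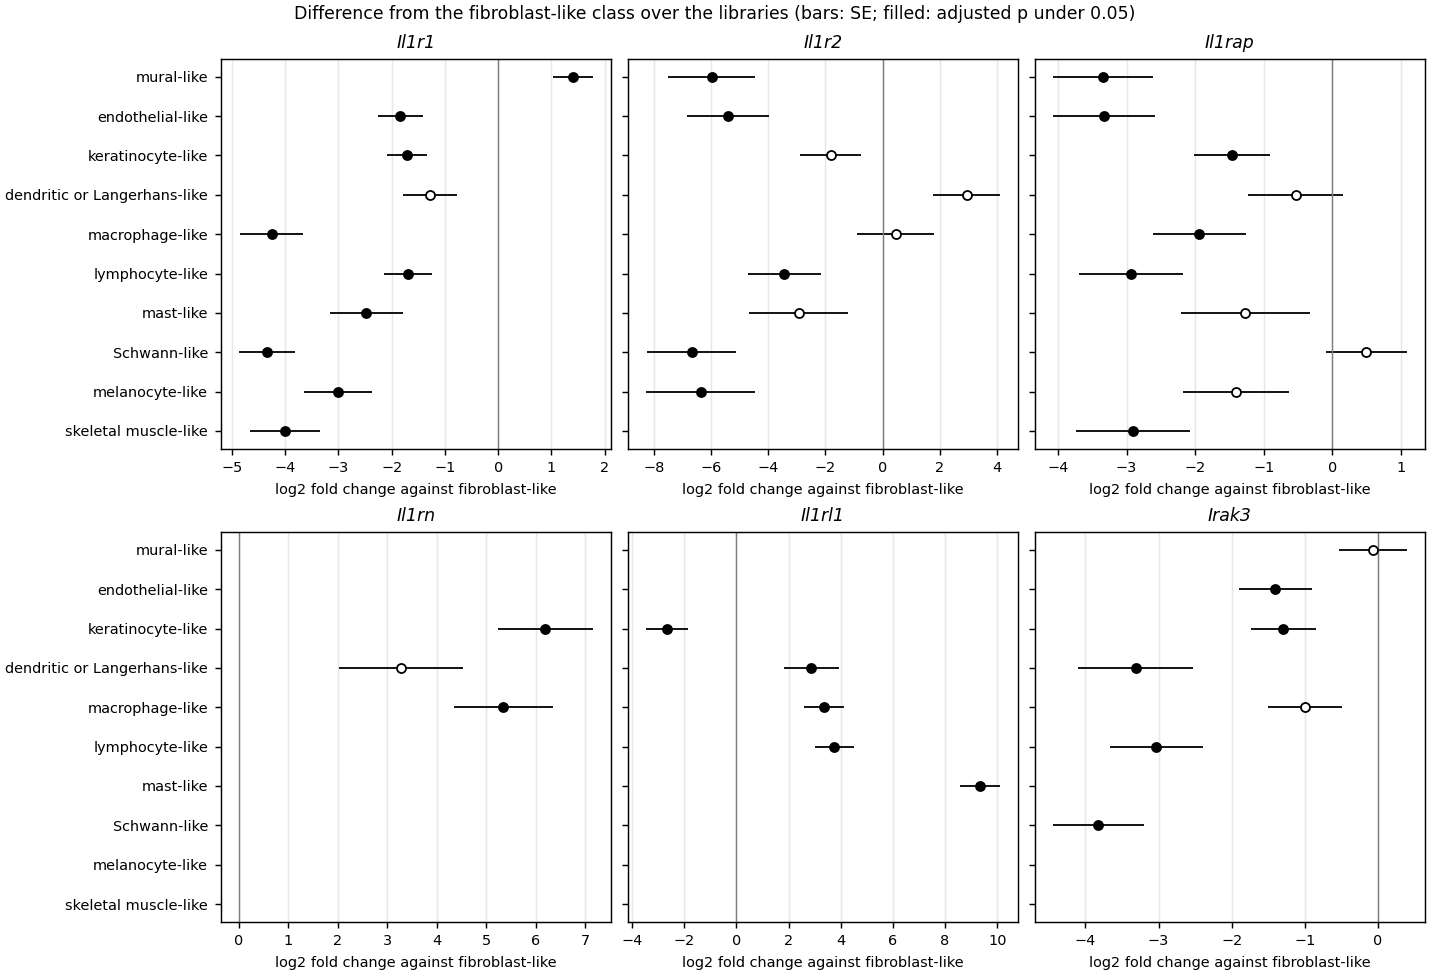
Log2 fold change of each gene in each class against fibroblast-like cells over the libraries, with bars of 1 SE; filled points have an edgeR adjusted p under 0.05, and contrasts in which the class held under 3 UMIs of the gene are left out. Mural-like cells were the only class called higher for Il1r1, at 1.40, and mast-like cells stood at 9.34 for Il1rl1.

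With age the 4 members measured in fibroblast-like cells (10 CPM or more in at least 1 of the libraries compared) did not change alike. Il1r2 went from 6.02 CPM (5.43 to 6.66) in the neonatal library to 197 (194 to 201) at 3 weeks and 586 (579 to 592) at 2 months, ratios of 32.8 and 2.97 between neighbouring ages. Il1rap was 2-fold or more higher at 3 weeks than in the neonatal library (log2 1.48) and differed by 0.22 between 3 weeks and 2 months. Irak3 went from 9.22 to 23.0 and 43.5 CPM (log2 1.32 and 0.92). Il1r1 moved from 38.8 to 46.8 CPM (log2 0.27 over the whole span), a change below 2-fold.

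Of the 4 measured members 3 were 2-fold or more higher at 3 weeks than in the neonatal library, where 8.34% of 8557 measured genes were 2-fold or more higher and 10.8% lower. Between 3 weeks and 2 months it was 1 of 4, against 3.25% of 8062 genes higher and 3.24% lower, and from neonatal to 2 months 3 of 4, against 11.1% of 8713 genes higher and 17.0% lower. No member was 2-fold lower. In the 2 comparisons with the neonatal library, Il1r2 and Irak3 passed the 10 CPM filter only through the later library, which favours a count as higher. All genes were filtered in the same way. The median gene shifted by -0.20, -0.08 and -0.29 on the log2 scale over these comparisons. Relative to it Il1r1 differed by 0.28, 0.27 and 0.56, Il1rap by 1.68, 0.30 and 1.99, Irak3 by 1.52, 0.9998 and 2.53, and Il1r2 by 5.23, 1.65 and 6.90. Since each age is 1 library, age, library and animal cannot be told apart.

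The rise of the decoy was spread over many fibroblast-like cells. Cells with an Il1r2 UMI held a median of 1 in the neonatal library, 3 at 3 weeks and 7 at 2 months, and the highest single cell held 9, 27 and 57. At 2 months the top 502 cells (1 in 10) held 32.5% of the UMIs. In keratinocyte-like cells the decoy was 3.93 log2 units higher at 3 weeks than in the neonatal library and 0.91 lower at 2 months than at 3 weeks. In this class 1 of the 4 measured members was 2-fold higher at 3 weeks, against 7.9% of genes higher and 5.73% lower. That member, Il1r2, passed the 10 CPM filter only through the 3-week library.

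**Figure D3:**
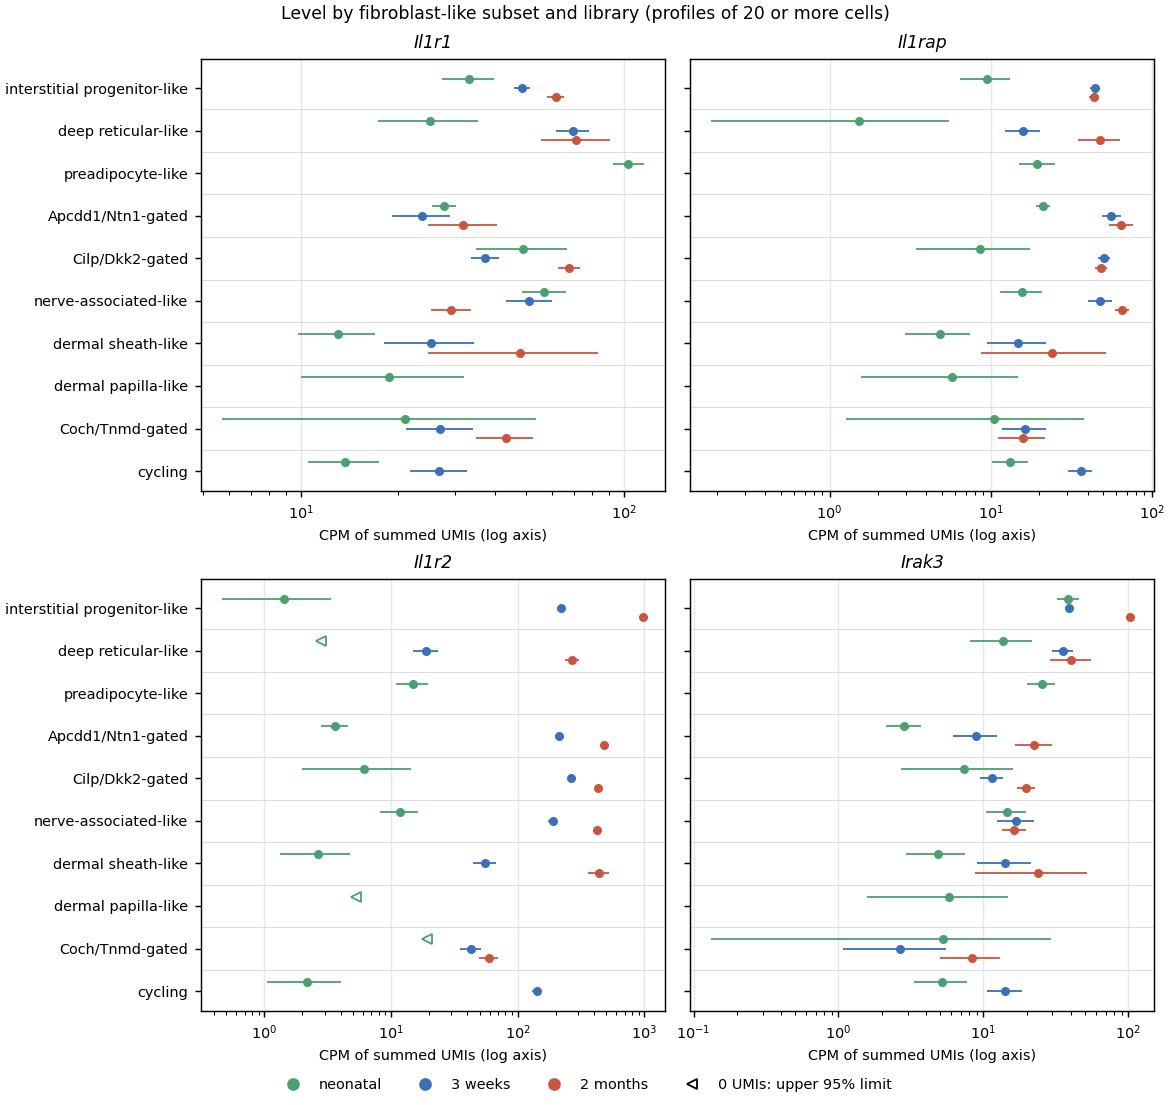
Level of Il1r1, Il1rap, Il1r2 and Irak3 (CPM, log axis) in each fibroblast-like subset of 20 or more cells, with 1 point per library (green neonatal, blue 3 weeks, red 2 months) and 95% exact Poisson bars; open triangles are upper limits for 0 UMIs. Irak3 was highest in interstitial progenitor-like cells in each library, at 38.6, 39.2 and 103 CPM, and Il1r2 was at most 14.8 CPM in the neonatal subsets.

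Fibroblast-like cells were divided by a second set of markers into subsets, named by the same rule. This gate left 2421 of 6527 neonatal, 1633 of 5789 3-week and 1284 of 5020 2-month fibroblast-like cells unassigned. Those cells are part of no subset result. A set gated on papillary markers is called Apcdd1/Ntn1-gated, because none of its markers was among its leading 10 genes. Each subset was tested against the mean of the other subsets over 12748 genes, and 6.49% of all gene tests were called higher and 3.54% lower. For the 4 members that passed the filter on low counts, 5 of 32 tests (15.6%) were called higher and 4 (12.5%) lower. Il1rn and Il1rl1 were too low to be tested. Without library as a block, or without the 3-week library (adjusted p from 0.085 to 0.7 for the others), 1 of the 9 calls remained, that of Irak3 in interstitial progenitor-like cells.

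Of the 32 subset tests of these members, the smallest adjusted p was that of Irak3 in interstitial progenitor-like cells. Interstitial progenitor-like cells, fibroblasts rich in Pi16, had 38.6 CPM in the neonatal library, 39.2 at 3 weeks and 103 at 2 months. Their level was above the mean of the other subsets by 2.43 on the log2 scale (SE 0.23, edgeR adjusted p = 9.8e-07), and the call held in each setting that was run. Deep reticular-like cells had 13.7, 35.6 and 40.4 CPM and were also called higher (log2 1.33, SE 0.28, edgeR adjusted p = 0.0038; without the block 0.19). Coch/Tnmd-gated cells had the least, 5.24, 2.67 and 8.36 CPM (log2 -2.27, SE 0.44, edgeR adjusted p = 0.0015; without the block 0.15).

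Il1r2 was highest in interstitial progenitor-like cells at 2 months, at 970 CPM, after 1.43 CPM in the neonatal library and 219 at 3 weeks. At 2 months 70.7% of these cells had an Il1r2 UMI in the thinned cells and 97.1% unthinned, against 1.12% of the thinned neonatal cells. The subset differed from the mean of the others by 1.18 (SE 0.45, edgeR adjusted p = 0.081), which did not pass the test, and with the stricter gate by 1.54 with an adjusted p of 0.041. Nerve-associated-like cells had a larger difference, 1.31 (SE 0.49, edgeR adjusted p = 0.197), which did not pass either. Apcdd1/Ntn1-gated cells had 3.64, 212 and 484 CPM and Cilp/Dkk2-gated cells 6.11, 264 and 433 CPM.

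At 3 weeks the decoy was lowest in 2 subsets. Coch/Tnmd-gated cells had 0, 42.7 and 59.4 CPM, a difference of -2.43 (SE 0.68, edgeR adjusted p = 0.022) that ended without the block (adjusted p = 0.55), with the stricter gate (0.055), without the 2-month library (0.11) and without the 3-week library (0.085). Deep reticular-like cells had 0, 18.9 and 268 CPM, the largest ratio between 3 weeks and 2 months at 14.2. With their neonatal count of 0 set to a floor of 3 counts, the 2-month level was 117-fold higher. That figure depends on the floor and is no confidence limit. Dermal sheath-like cells had 2.66, 54.9 and 434.5 CPM, the last from 20 cells. An average that gave 7 subsets equal weight was 3.66, 143 and 439 CPM. It left out the unassigned, preadipocyte-like, cycling and dermal papilla-like cells. Small profiles, such as the 31 neonatal Coch/Tnmd-gated cells, had full weight in it. The part of subset composition in the age differences was not tested.

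Il1r1 and Il1rap were spread differently over the subsets. Among subsets of 20 or more cells, Il1r1 was highest in preadipocyte-like cells in the neonatal library (103 CPM). These were too few in the later libraries to be tested. At 3 weeks and 2 months Il1r1 was highest in deep reticular-like cells (69.7 and 71.4 CPM). In that subset all 4 measured members, Il1r1 among them, were 2-fold or more higher at 3 weeks than in the neonatal library. Over the libraries Il1r1 was called higher there by 0.83 (SE 0.24, edgeR adjusted p = 0.026; without the block 0.15, with the stricter gate 0.11, without the 3-week library 0.7, without the 2-month library 0.06). Il1rap was higher in Apcdd1/Ntn1-gated cells, at 21.1, 56.3 and 64.7 CPM (log2 1.11, SE 0.22, edgeR adjusted p = 0.0063; without the block 0.84, without the neonatal library 0.061), and in nerve-associated-like cells at 15.6, 47.9 and 65.5 CPM (log2 0.98, SE 0.23, edgeR adjusted p = 0.022; without the block 0.89, without the 2-month library 0.074, without the neonatal library 0.081). It was lower in Coch/Tnmd-gated cells at 10.5, 16.4 and 15.8 CPM (log2 -1.46, SE 0.33, edgeR adjusted p = 0.0046; without the block 0.49, without the 2-month library 0.071) and in dermal sheath-like cells (log2 -1.25, SE 0.33, edgeR adjusted p = 0.026; without the block 0.5, without the neonatal library 0.11, without Scrublet doublets 0.067). The subset rich in Il1r1 in the later 2 libraries, deep reticular-like, had 15.9 and 47.6 CPM of Il1rap.

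**Figure D4:**
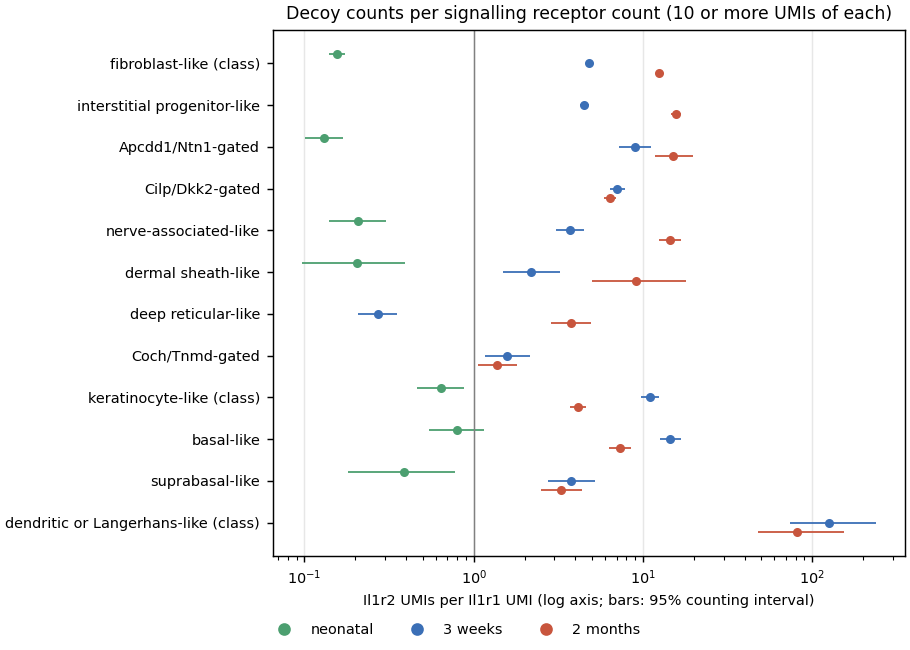
Il1r2 UMIs per Il1r1 UMI (log axis, 95% counting interval) in classes and subsets with 10 or more UMIs of each gene, with 1 point per library (green neonatal, blue 3 weeks, red 2 months). The vertical line marks equal counts; fibroblast-like cells crossed it between the neonatal library (0.155) and 3 weeks (4.80).

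Decoy and signalling receptor compete for the same ligand, so their counts were also set against each other. These are ratios of 3' counts, not of protein or of transcripts per length. Fibroblast-like cells had 0.155 Il1r2 UMIs per Il1r1 UMI in the neonatal library, 4.80 at 3 weeks and 12.5 at 2 months. Interstitial progenitor-like cells had 4.51 and 15.7 at the later ages and nerve-associated-like cells 0.207, 3.70 and 14.5. Lower ratios at 3 weeks were found in deep reticular-like cells with 0.271 and Coch/Tnmd-gated cells with 1.58. The latter stayed at 1.38 at 2 months while deep reticular-like cells had 3.75.

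In keratinocyte-like cells the ratio was highest at 3 weeks, 11.01, between 0.638 in the neonatal library and 4.13 at 2 months. Basal-like cells had 0.794, 14.5 and 7.35 and suprabasal-like cells 0.387, 3.77 and 3.29. Upper follicle-like cells at 2 months had 0.159, which left Il1r1 in excess there. Dendritic or Langerhans-like cells had 127 and 81.8, each resting on 13 Il1r1 UMIs.

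Whether receptor, accessory chain and decoy were found in the same cell was read after each cell had been thinned to 1500 UMIs, and 156 shallower fibroblast-like cells were left out. Of the 6499 neonatal, 5771 3-week and 4910 2-month fibroblast-like cells, 7, 73 and 213 held both Il1r1 and Il1r2. Il1r2 was seen in 2.10% (0.849 to 4.28), 22.3% (17.9 to 27.2) and 49.0% (44.2 to 53.8) of cells with an Il1r1 UMI. In cells without one it was seen in 0.746%, 22.7% and 45.7%. At the later 2 ages the share in Il1r1-negative cells lay within the exact binomial interval of the share in Il1r1-positive cells. At this depth decoy and receptor were thus found together about as often as their separate shares give. The neonatal share was higher in Il1r1-positive cells and rests on 7 cells.

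Among cells with Il1r1 the share with Il1rap was 1.80% (0.664 to 3.88), 5.81% (3.53 to 8.93) and 3.68% (2.12 to 5.90), against 2.42%, 6.47% and 6.79% of cells without. The 2-month intervals did not overlap, with 16 of 435 Il1r1-positive cells, but at 3000 UMIs the shares were 11.4% and 13.5% and in unthinned cells 38.2% and 38.2%, so the gap depends on the depth. At 3000 UMIs the 3-week shares were 8.43% and 12.1%. In unthinned neonatal cells the order turned, with 18.8% against 11.4%.

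Il1rap was found more often with the decoy than without it at 3 weeks, in 10.2% (8.65 to 12.01) of Il1r2-positive against 5.31% of Il1r2-negative fibroblast-like cells. At 2 months the shares were 6.82% and 6.26%, and in the neonatal library 7.55% and 2.34%, the first from 4 of 53 cells. Keratinocyte-like cells at 3 weeks had a like difference, 9.22% (5.64 to 14.0) against 1.87%. Irak3 was seen in 3.00%, 6.42% and 8.28% of Il1r1-positive against 1.10%, 3.23% and 6.03% of Il1r1-negative fibroblast-like cells. Its share in Il1r2-positive cells was below that in Il1r2-negative cells at 3 weeks (2.22% and 3.77%) and above it at 2 months (8.54% and 4.26%). Subsets differ in these genes, and their part in such shares was not tested.

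Few thinned fibroblast-like cells held all of Il1r1, Il1rap and Il1r2: 1 in the neonatal library, 2 at 3 weeks and 6 at 2 months. Cells with Il1r1 and Il1rap but no decoy UMI numbered 5, 17 and 10. Without thinning, 37, 656 and 630 cells held all 3 genes and 266, 137 and 54 held receptor and accessory chain without decoy, so in unthinned cells the decoy-free pair outnumbered the triple in the neonatal library and the reverse held at 3 weeks and 2 months. In the thinned cells the decoy-free pair was the more frequent at all 3 ages. Mural-like cells were read in thinned cells only, and Il1r2 and Il1rap were both at low levels in this class as a whole. Of 184, 226 and 204 thinned cells 34, 31 and 36 held Il1r1, and of these 0, 1 and 0 held Il1r2 and 0, 1 and 0 held Il1rap. In interstitial progenitor-like cells at 2 months Il1r2 was seen in 72.9% of Il1r1-positive and 70.5% of Il1r1-negative cells, and Il1rap in 1 of 144 Il1r1-positive cells.

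**Figure D5:**
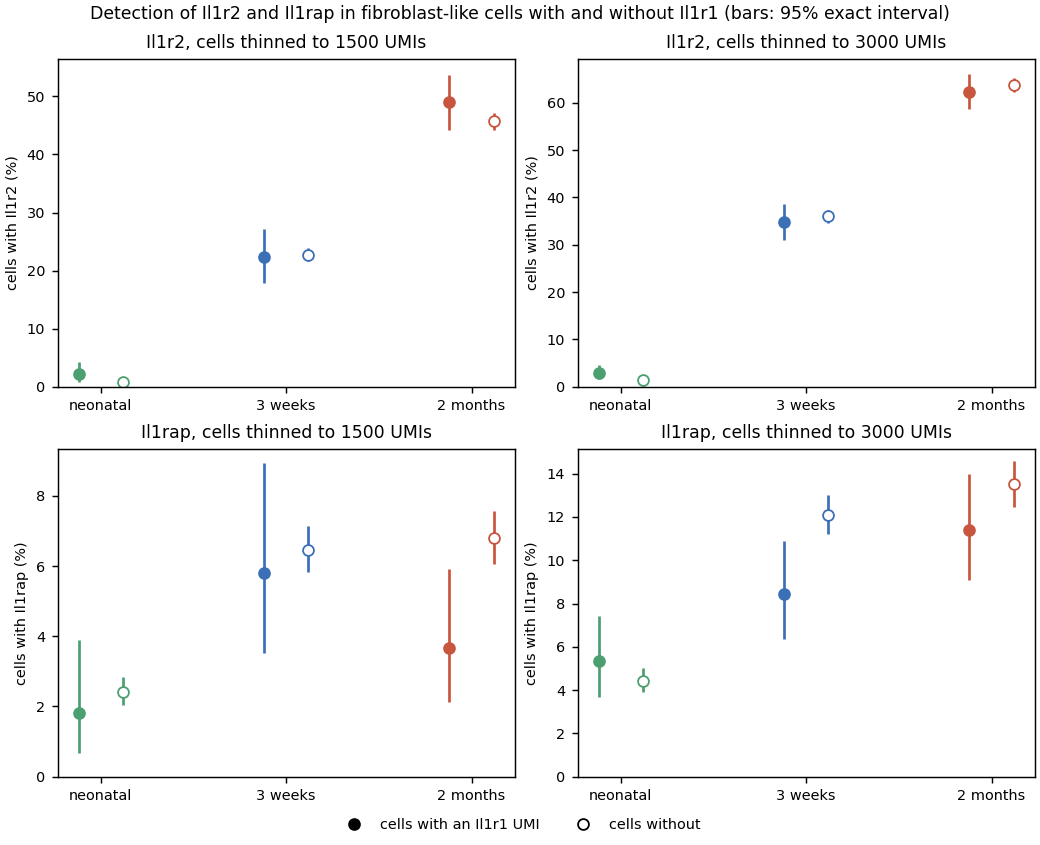
Percent of fibroblast-like cells with an Il1r2 (top) or Il1rap (bottom) UMI among cells with (filled) and without (open) an Il1r1 UMI, by library, with cells thinned to 1500 (left) or 3000 (right) UMIs and 95% exact binomial bars. The Il1r2 shares of the 2 kinds of cell lay close together at 3 weeks and 2 months, at 49.0% and 45.7% in the latter at 1500 UMIs.

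The ligands of these receptors were read in the same classes. Il1b was at 5888, 503 and 146 CPM in macrophage-like cells and at 2011 and 491 CPM in dendritic or Langerhans-like cells at 3 weeks and 2 months, and at 1.76, 0.351 and 0.140 CPM in fibroblast-like cells. Il1a was at 427, 9.21 and 19.2 CPM in macrophage-like cells and 4.48, 0.748 and 0.708 CPM in keratinocyte-like cells. Il33, the ligand of ST2, was at 0.814, 64.1 and 38.7 CPM in keratinocyte-like cells and at 2.36, 7.07 and 23.2 CPM in fibroblast-like cells.

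Other genes of the pathway, a list of 50 of which 46 are in the gene files, were counted in fibroblast-like cells. At 3 weeks against neonatal 25 were measured, 2 were 2-fold or more higher and 2 lower (8.34% and 10.8% of all measured genes), with a median log2 difference of -0.13 beside -0.20 over all genes. The higher ones were Il18, from 0.966 to 13.3 CPM, and Casp4, an inflammatory caspase, and the lower ones were Peli1, from 186 to 71.2 CPM, and Peli2, which encode ubiquitin ligases of IRAK signalling. At 2 months against 3 weeks 1 of 25 was higher, Il33 from 7.07 to 23.2 CPM, and none was lower (3.25% and 3.24% of all), with a median of 0.18 beside -0.08. From neonatal to 2 months 6 of 27 were higher and 1 lower (11.1% and 17.0% of all), with a median of 0.09 beside -0.29. The higher ones were Il1rl2, the IL-36 receptor, from 19.0 to 55.8 CPM, Tnfaip3, a brake on NF-kB, from 131 to 289 CPM, and Il18, Il33, Casp1 and Casp4. The lower one was Peli1, at 70.4 CPM at 2 months. Where Il18 and Il33 were counted as higher, they had passed the 10 CPM filter only through the later library.

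In the contrast of interstitial progenitor-like cells with the mean of the other subsets, 10 of 33 pathway genes were called higher and none lower, where 11.5% of all genes were called higher and 7.17% lower. The 10 were Casp1, Ikbkb, Il18, Il1rl2, Il33, Nfkb1, Nfkbia, Nfkbiz, Rel and Tnfaip3, of which Nfkbia, Nfkbiz and Tnfaip3 encode regulators of NF-kB that are themselves known NF-kB targets. Deep reticular-like cells had 6 higher and 1 lower, against 9.21% and 4.35% of all genes. Il33, Nfkb1, Nfkbiz and Tnfaip3 were called higher in both subsets. Nerve-associated-like cells had 3 higher and none lower (2.37% and 0.275% of all genes). Cycling cells had 2 and 4 (10.8% and 3.79%) and dermal sheath-like cells 0 and 4 (5.26% and 2.17%). Coch/Tnmd-gated cells had 1 higher and 8 lower, against 9.53% and 9.52% of all genes. Cilp/Dkk2-gated cells (0.847% and 0.0941% of all genes) and Apcdd1/Ntn1-gated cells (2.38% and 0.926%) had no call in either direction. Among the classes, macrophage-like cells had 22 of 39 pathway genes called higher than fibroblast-like cells and 2 lower, against 15.9% and 22.0% of all genes. Keratinocyte-like cells had 11 higher and 4 lower (18.6% and 25.8% of all genes), and Schwann-like cells 2 and 9 (11.3% and 18.3%).

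The genes whose log2(CPM + 1) levels were most like each member's were taken over 32 cell class profiles, which share 3 libraries, and the correlations are descriptions without a test. For Il1r2 they were Casp1 (Pearson r 0.78), Ptgs2, Ifi30, Ptgs1 and Il18 (0.76). For Il1r1 they were Rasd1 (0.83), Cygb, Shox2, Pck2 and C1s1, and Irak3 had 0.71 with it, while Il1r2 had 0.25 and Il1rap -0.12. For Irak3 they were Lrrc32 (0.76), Shox2, Cpxm2, Anxa3 and Cygb, of which Anxa3 and Cpxm2 are markers used in the subset gate. For Il1rap, Prnp came first (0.69), and for Il1rn, Serpinb2 (0.83). For Il1rl1, Cd200r4 came first (0.96), followed by Lat2, Il4, Adora3 and Sla.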

How the data were processed

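Per the labels' protocols and the submitters' processing notes, libraries were made with a droplet 3' kit, sequenced on a NovaSeq instrument and processed with Cell Ranger 3.0.2 and Seurat 2.0 on mm10. The authors deposited raw UMI counts as whole numbers, without normalization. Barcodes under 300 genes or 500 UMIs, or over 10% mitochondrial, were removed, which left 81282170, 109336985 and 96290401 UMIs in the neonatal, 3-week and 2-month libraries.

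Classes came from the mean scaled detection of fixed markers (score of 0.2 or more, margin 0.1, subsets 0.05). Trbc1, Trbc2 and Trdc were not in the gene files. The score, the margin and the rule that moves cells rich in MHC class II counts (Cd74, H2-Aa, H2-Ab1 and H2-Eb1) to the dendritic or Langerhans-like class were set after the data had been looked at. Cells with markers of 2 classes (120, 266 and 276) stayed unassigned. Doublets were kept, and a Scrublet removal (scanpy 1.11.5) of 475, 211 and 348 barcodes was an alternative. In the neonatal library its threshold found 0.0253% of cells, so the top 6% by score were removed instead.

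Counts were summed per library and class (20 or more cells) and tested with edgeR 4.0.16 in R 4.3.3, with TMM scaling, filterByExpr, Benjamini-Hochberg adjustment and library as a block, in 30 class and 23 subset profiles. DESeq2 1.42.0 was an alternative. The script was tested on simulated data. Between ages, 2-fold at 10 CPM or more in either library was the call. Shares have Clopper-Pearson 95% intervals. PCR copies are removed by the UMIs, and intervals cover counting error only. The p-values rest on the spread left between the profiles of these libraries after the library block. Since each library is 1 age, that spread includes age differences that vary between classes or subsets. Named genes were the 6 members, pathway genes 2-fold apart between ages in fibroblast-like cells, ligands, and the 5 genes of highest correlation with each member. The members, lists and tests were chosen with earlier results of these data known. Alternatives without the MHC class II rule, with equally weighted subsets and with interstitial progenitor-like cells alone were added after seeing the data. Sequences were read from RefSeq tables of GRCm38.p6, in which all 6 genes matched.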

Additional observations from a re-analysis of the deposited data

Results flagged for a closer look

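In 5 classes a member moved between 2 ages in the direction opposite to fibroblast-like cells, with intervals on either side of zero. With 1 library at each age these differences were not tested. Il1r2 was lower at 2 months than at 3 weeks in keratinocyte-like cells (log2 -0.91), dendritic or Langerhans-like cells (-0.69) and macrophage-like cells (-1.39), where fibroblast-like cells had 1.57. Between the neonatal library and 3 weeks, Il1r2 in macrophage-like cells was lower (-1.78) where fibroblast-like cells had 5.04, and the neonatal level there came from 19 cells. Il1rap was lower at 3 weeks than in the neonatal library in Schwann-like cells (-1.85, fibroblast-like 1.48) and lower at 2 months than at 3 weeks in dendritic or Langerhans-like cells (-1.22, fibroblast-like 0.22). Il1r1 was lower at 3 weeks than in the neonatal library in mural-like cells (-0.44), where fibroblast-like cells had 0.08.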

How the results depend on the processing

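No paired analysis was possible because each age has 1 library, so no replicate numbers pair samples between ages, while classes and subsets were compared within libraries through the block. The count of 36 class calls ran from 7 (without the 3-week library) to 40 (without the neonatal library), with 14 without the 2-month library, and fewer contrasts could be fitted without a library (42 to 54 of 60). The 9 subset calls fell to 1 without the library block and ran from 1 to 10 with a library left out. No called difference reversed. Of the uncalled ones, Il1r2 in macrophage-like cells turned to -0.86 without the block, -0.51 with the stricter gate and ran from -2.54 (without the neonatal) to 2.66 (without the 2-month library). Irak3 in mural-like cells turned to 0.12 with Leiden clusters, 0.13 with the stricter gate and ran from -0.60 (without the neonatal) to 0.60 (without the 2-month library), with 0.03 without the 3-week library. Il1rap in Schwann-like cells ran from -0.89 (without the neonatal) to 1.35 (without the 2-month library). The log2 ratio of Il1r2 in fibroblast-like cells moved from 5.04 to 4.82 (3 weeks against neonatal) without mitochondrial, ribosomal-protein and haemoglobin genes, 5.22 with TMM and 5.29 with equal subset weights. At 2 months against 3 weeks it moved from 1.57 to 1.64 with TMM and 1.62 with equal weights, and against neonatal from 6.60 to 6.37, 6.86 and 6.91 under those settings and 6.44 without the MHC class II rule. With the mean of CPM per cell, 2 members in place of 1 were 2-fold apart between 3 weeks and 2 months. The ratio of Il1r2 detection in Il1r1-positive over Il1r1-negative cells, 2.82 in the neonatal library, was 0 in interstitial progenitor-like cells alone (18 positive cells). For Il1rap the neonatal ratio of 0.746 became 1.66 unthinned and 0 in that subset, and the 2-month ratio of 0.541 became 0.999 unthinned and 0.109 in that subset. The cause of these changes was not tested. The other results at named classes and subsets kept direction and side of the threshold in 547 cases, fell below it in 88, passed it in 9 and moved in 30. Depth limits Il1rn and Il1rl1 outside keratinocyte-like and mast-like cells, where most profiles hold few UMIs.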
